A study of Homo sapiens with 9 samples.

Results

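The genes described here encode the machinery by which a cell displays peptides on MHC class I molecules. They are 9 of the 60617 genes in the deposited tables, taken by symbol with earlier results of these data known, and each symbol had 1 row. *HLA-B*, *HLA-C*, *HLA-E* and *HLA-F* encode class I heavy chains, and *B2M* encodes beta-2-microglobulin, the light chain that pairs with them. *TAP1* and *TAP2* form the transporter that carries peptides into the endoplasmic reticulum, *TAPBP* encodes tapasin, which holds empty class I molecules at the transporter, and *NLRC5* encodes the transactivator of class I genes.

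Peptides cut from cytosolic proteins by the proteasome enter the endoplasmic reticulum, are trimmed and loaded, and travel to the cell surface, where CD8 T cells read them. Natural killer cells read the same molecules through inhibitory receptors, and HLA-E is the ligand of one such receptor family. Transcription of these genes is raised by interferons, in part through IRF1, and by NLRC5 together with the RFX proteins. Prostate carcinomas are known for low class I display, and inhibitors of DNA methylation are known to raise class I genes in several tumour types.

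RNA was sequenced from PC-3 cells, a line derived from a bone metastasis of a castration-resistant prostate carcinoma. All cells were grown in RPMI1640 and sampled on day 5. There were 3 control libraries, 3 from cells given 1 µM decitabine, and 3 from cells given 1 µM decitabine and 200 µM SAM at the same time, called the combination below. Decitabine is a cytidine analogue that traps DNA methyltransferases, and SAM (S-adenosylmethionine) is the cell's methyl donor. Cells given SAM alone were not analysed here, so an effect of SAM without decitabine cannot be read. The groups represent 1 cell line, and no source used here says whether replicates were separate cultures, so p-values measure only the spread between these samples, which may be technical.

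Totals lay between 21934307 and 22489684 estimated counts per library. Levels are given as CPM, counts per 1000000 of the TMM-scaled library size, and differences as log2 fold changes from edgeR's quasi-likelihood test, with the standard error (SE) and a p-value adjusted over all 18532 genes tested. All 9 genes passed the filter on low counts. All 4 epithelial markers passed the filter too. *KRT18* lay between 292.6 and 444.8 CPM over the 9 libraries. These markers moved with treatment as well. *KRT8* rose from a mean of 119.7 CPM in the controls to 264.4 CPM after decitabine and 208.4 CPM after the combination, and *CDH1* rose from 1.87 CPM to 14.4 CPM (7.65-fold) and 16.9 CPM (9.03-fold). *KRT18* fell by 0.25 on the log2 scale after decitabine and by 0.43 after the combination, and *EPCAM* was not called in either comparison with control (log2 0.24 and 0.34). *KLK3*, a marker of luminal prostate cells and low or absent in PC-3, had no count in any library. The summed level of 7 leukocyte markers was 0.199 to 0.35 CPM in the controls, 1.69 to 2.28 CPM after decitabine and 1.5 to 1.96 CPM after the combination. *CD2* and *MS4A1* were at 0 throughout, and *CD3D* and *CD3E* were at 0 in all controls. Only *PTPRC* and *CD14* could be tested. Both were higher after decitabine (log2 3.59 and 1.80) and after the combination (log2 3.07 and 2.09) than in control, and *PTPRC* reached at most 1.265 CPM. The part of the epithelial and leukocyte markers in the differences below was not tested. In bulk RNA, a smaller fraction of cells expressing a gene and less RNA per cell cannot be told apart.

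One library stood apart in these genes. The combination replicate 3 had the highest level of its group for 9 of the 9 genes, at 1.2 times the mean of the other combination libraries for *B2M* and 3.35 times for *HLA-F*. The share of all genes tested that were highest in this library was not counted, so how unusual this is cannot be said. The ratio of chi-square to degrees of freedom between this library and the other combination libraries over all genes was 23.5 and 15.1, against 5.86 between those 2. Replicates 1 and 3 also differed at 17 in the controls and at 18 after decitabine, so over all genes this library was not alone in its distance. Values without it are given beside the results that rest on it.

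Most of these genes carry sequence that other genes share, which bears on how reads were assigned. Of the 31-base words of the canonical transcript, 32% in *HLA-B*, 19.6% in *HLA-C*, 13.9% in *HLA-E* and 43.7% in *HLA-F* also occur in another gene. The share was 22.6% for *TAP1*, mostly words shared with *PSMB8-AS1*. For *TAP2* it was 35.5%, the same share that occurs in the read-through gene ENSG00000250264. For *TAPBP* it was 45.1%. *B2M* and *NLRC5* shared none over their canonical transcript. Their other transcripts, whose reads also enter the counts per gene, were not searched.

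The genes lie on 3 chromosomes of the GRCh38 genome (GENCODE release 44). Within the MHC on chromosome 6 are *HLA-F* (ENSG00000204642, chr6:29722775-29738528, plus strand), *HLA-E* (ENSG00000204592, chr6:30489509-30494194, plus), *HLA-C* (ENSG00000204525, chr6:31268749-31272130, minus) and *HLA-B* (ENSG00000234745, chr6:31353872-31367067, minus). Further along are *TAP2* (ENSG00000204267, chr6:32821833-32838739, minus), *TAP1* (ENSG00000168394, chr6:32845209-32853816, minus) and *TAPBP* (ENSG00000231925, chr6:33299694-33314284, minus). *B2M* (ENSG00000166710) is at chr15:44711358-44718851 on the plus strand and *NLRC5* (ENSG00000140853) at chr16:56989485-57083531 on the plus strand. *PSMB9*, an immunoproteasome gene, overlaps *TAP1* on the opposite strand.

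The promoters of these genes are described by their letters alone. The RefSeq table (GRCh38.p14) held the 250 bases upstream of the start for 7 of the 9 genes, and not for *HLA-E* and *NLRC5*. The interferon-stimulated response element was searched on both strands as GAAA, any 2 bases, and GAAA again. It was found in 5 of the 7 (*HLA-F*, *B2M*, *TAP1*, *TAP2* and *TAPBP*), and in 3.02% of all 35116 promoters of the same length. The stretches around it are shown because they are the sequence these 5 genes have in common, with the matched letters in capitals (adjoining matches are merged, and TTTC in place of GAAA shows the element on the other strand), each written 5′ to 3′ on the strand of its gene.
HLA-F, chr6:29723271-29723294, plus: cccagagTTTCTCTTTCtctccca
B2M, chr15:44711366-44711395, plus: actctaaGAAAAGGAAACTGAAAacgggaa
TAP1, chr6:32853816-32853845, minus: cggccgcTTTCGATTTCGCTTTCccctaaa
TAP2, chr6:32838781-32838804, minus: gggaagcGAAAGCGAAAgctgccc
TAPBP, chr6:33314079-33314105, minus: tttggagGAAAGTGAAAGTGAAAggag

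The first matched base lay 156 bases upstream of the start in *HLA-F*, 144 in *B2M*, 134 in *TAP1*, 58 in *TAP2* and 20 in *TAPBP*. *B2M*, *TAP1* and *TAPBP* each held 2 overlapping copies, *HLA-F* and *TAP2* 1. The *TAPBP* and *B2M* stretches lie in exons of annotated transcripts of the same gene that start further upstream, the *TAP1* stretch touches one, and the *TAP2* stretch lies in an exon of its read-through gene. The *HLA-F* stretch lies within the annotated span of *HLA-F*, in an exon of the pseudogene ENSG00000225864 on the opposite strand. *HLA-B* and *HLA-C* did not hold the letters searched for the interferon-stimulated response element. Their stretches most like that of *HLA-F* differed from it at 4 of 24 bases in *HLA-B* and at 9 in *HLA-C*. Other forms of this element were not searched either, so neither promoter can be said to lack it. The letters GGGNNTTCC, a form of the NF-kB element, were searched on both strands. They were found in *HLA-B* and *TAPBP*, that is in 2 of the 7, and in 5.78% of all promoters. Other forms of the element were not searched, so promoters without these letters cannot be said to lack it. The classical pair *HLA-B* and *HLA-C* is shown side by side over these letters, in capitals where they match. The 2 stretches differ at 2 of 30 bases, and only the first holds the searched letters. Whether the *HLA-C* stretch holds another form of the element was not tested.
HLA-B, chr6:31357337-31357366, minus: gcgcagcgttGGGGATTCCccactcccctg
HLA-C, chr6:31272246-31272275, minus: gcgccgcgttggggattctccactcccctg

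CCAAT was found in 5 of the 7 promoters and in 32% of all. The letters TGACG were found in 4 of the 7 and in 21.2% of all, and TTCNNNGAA, the gamma-interferon activated site, in 1 (*TAP1*, in the second of its start sites) and in 6.57%. Because decitabine acts on CpG methylation, CpG sites were counted in the same 250 bases. *TAP2* had 19, *B2M* 18, *HLA-B* 17, *TAP1* 16 at its first start site, *HLA-C* 15, *HLA-F* 13 and *TAPBP* 10. The median over all promoters was 11, with quartiles of 3 and 23, and each of these counts lay between the quartiles. The files used here hold no methylation values. A match of letters is a description of the sequence and no measurement of binding.

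The comparison of decitabine with control asks what the demethylating agent alone did to these genes. All 9 rose, and none fell. Over all genes tested, 36.3% were called higher and 32.5% lower at an adjusted p under 0.05, so being called is common here. The changes were larger than those of most genes. Their median log2 fold change was 1.98 (from 0.54 to 3.90) and that of all genes 0.035. Ranked by log2 fold change among all genes tested, they ran from percentile 68.5 (*TAP2*) and 79.8 (*B2M*) to 93.4 (*HLA-F*). In 9 of the 9 genes every decitabine library was above every control library, which held for 38.1% of all genes tested. The order of the changes ran from *HLA-F*, *NLRC5*, *HLA-B* and *TAP1* at the top to *B2M* and *TAP2* at the bottom.

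**Figure D1:**
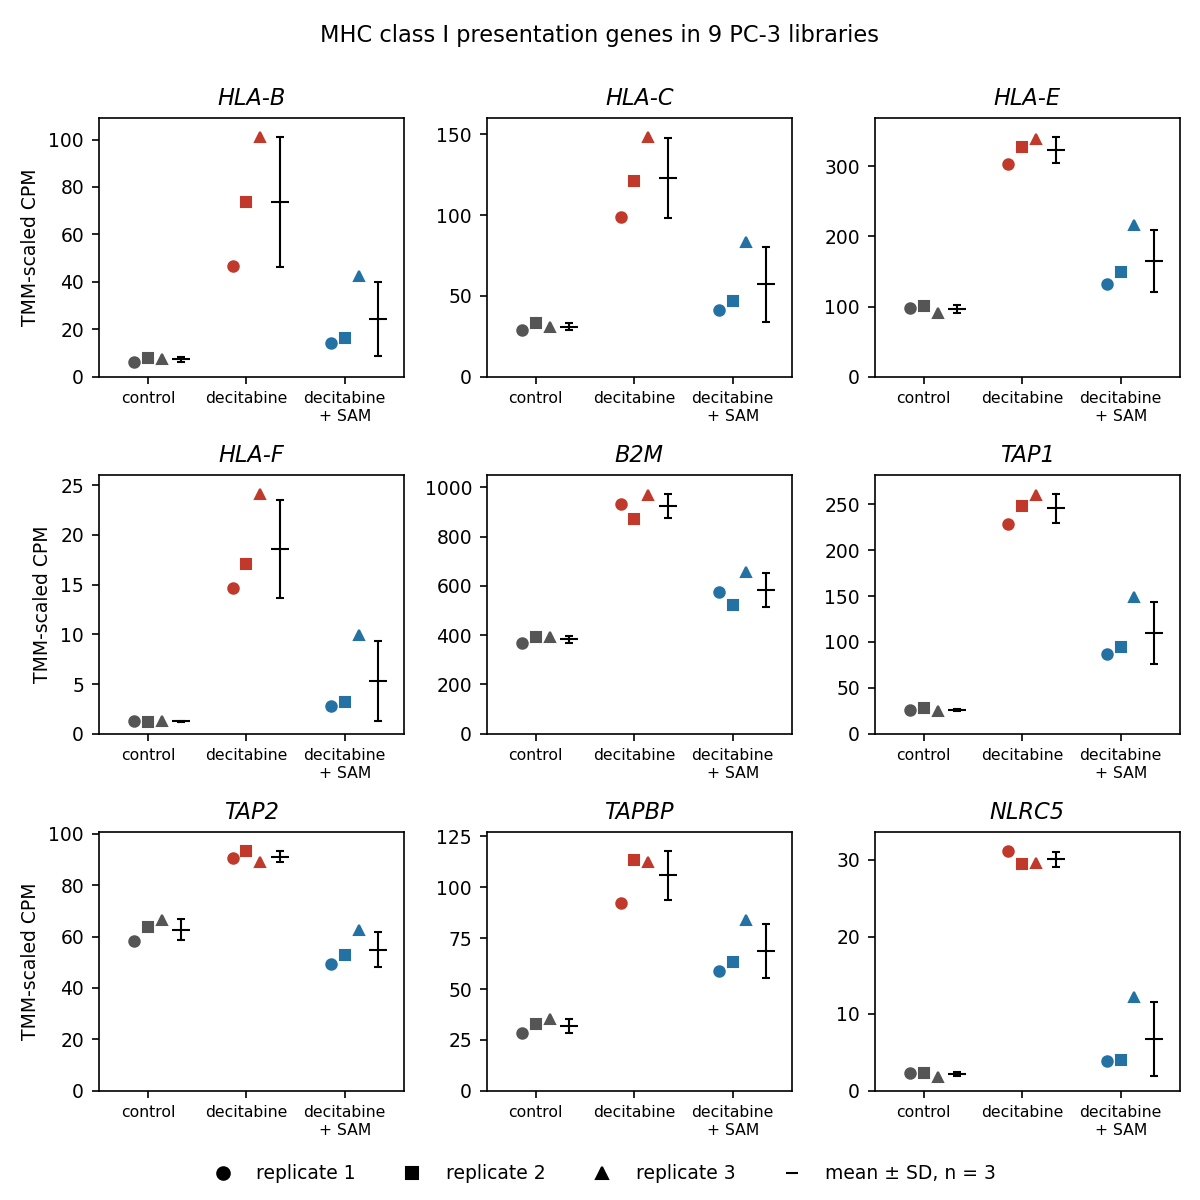
Level of each gene (vertical axis, TMM-scaled CPM, from 0) in each of the 9 libraries, with points for replicates and the mean ± SD (n = 3) beside them. The decitabine libraries lie above all controls in the 9 panels, and the combination libraries lie below all decitabine libraries, with replicate 3 (triangle) the highest of its group.

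*NLRC5*, the transactivator, was nearly silent in the controls, at 2.33, 2.25 and 1.83 CPM in replicates 1 to 3. After decitabine it stood at 31.2, 29.4 and 29.6 CPM, and after the combination at 3.88, 4.0 and 12.2 CPM. The decitabine libraries lay close together and far above the rest, and the combination libraries lay above the controls without overlap, with replicate 3 well above the other 2. Decitabine raised it 14-fold (log2 3.81, SE 0.47, adjusted p = 0.00022).

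*HLA-F*, a non-classical heavy chain, had 1.24, 1.20 and 1.28 CPM in the controls. The decitabine libraries had 14.7, 17.0 and 24.1 CPM and the combination libraries 2.79, 3.17 and 9.97 CPM. Groups did not overlap, and the decitabine libraries differed among themselves more than the controls did. The rise after decitabine was 14.9-fold (log2 3.90, SE 0.57, adjusted p = 0.00055), the largest of the 9 genes.

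*HLA-B*, a classical heavy chain that presents to CD8 T cells, had 6.21, 8.11 and 7.60 CPM in the controls. After decitabine it had 46.6, 73.5 and 101 CPM, and after the combination 14.2, 16.5 and 42.4 CPM. The highest combination library came close to the lowest decitabine library, without overlap. The rise after decitabine was 10.1-fold (log2 3.34, SE 0.55, adjusted p = 0.0015).

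*HLA-C*, the other classical heavy chain here and a ligand of killer-cell receptors, started higher, at 29.1, 33.2 and 30.9 CPM. It reached 98.8, 121 and 149 CPM after decitabine and 41.1, 46.9 and 83.6 CPM after the combination. The 3 groups were separate. Decitabine raised it 3.96-fold (log2 1.98, SE 0.29, adjusted p = 0.00064).

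*HLA-E* was the most abundant of the 4 heavy chains, with 97.3, 101 and 90.3 CPM in the controls. It had 303, 328 and 339 CPM after decitabine and 132, 149 and 216 CPM after the combination. The decitabine libraries were the highest and the controls the lowest, with no overlap. The change after decitabine was 3.36-fold (log2 1.75, SE 0.16, adjusted p = 3.4e-06).

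*B2M*, the shared light chain, was at 368, 393 and 393 CPM in the controls. It had 931, 872 and 971 CPM after decitabine and 575, 521 and 656 CPM after the combination. Its groups were separate and its replicates were tight. The rise of 2.4-fold after decitabine (log2 1.27, SE 0.09, adjusted p = 1.9e-08) was smaller than that of each heavy chain in fold.

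*TAP1*, one arm of the peptide transporter, was at 25.7, 27.5 and 25.0 CPM in the controls. It rose to 229, 249 and 260 CPM after decitabine and was at 86.7, 94.2 and 149 CPM after the combination. There was no overlap between groups. The rise after decitabine was 9.43-fold (log2 3.24, SE 0.20, adjusted p = 7.6e-07).

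*TAP2*, its partner in the transporter, behaved unlike it. It had 58.2, 63.6 and 66.4 CPM in the controls, 90.7, 93.4 and 89.0 CPM after decitabine, and 49.3, 52.7 and 62.5 CPM after the combination. The decitabine libraries were the highest, and the combination and control libraries overlapped. The rise after decitabine was 1.45-fold (log2 0.54, SE 0.09, adjusted p = 7.3e-05), the smallest of the 9.

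*TAPBP* had 28.2, 32.6 and 35.1 CPM in the controls. It had 92.1, 113 and 113 CPM after decitabine and 59.0, 63.4 and 84.0 CPM after the combination, and the groups did not overlap. Decitabine raised it 3.32-fold (log2 1.73, SE 0.14, adjusted p = 5.5e-07). The 9 calls of this comparison were kept when each library was left out in turn.

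The comparison of the combination with control asks how much of the rise was present when SAM was given as well. Of the 9 genes, 8 rose, and none was called lower by edgeR, DESeq2 or voom with limma, although *TAP2* was lower at an unadjusted p of 0.043. The controls are those of the comparison above. Over all genes tested, 35.9% were called higher and 31.3% lower. The median log2 fold change of the 9 genes was 1.11 (from −0.19 to 2.09), against 0.048 for all genes. Libraries of the 8 genes did not overlap between the groups, which held in this direction for 38% of all genes tested.

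*HLA-F* was 4.27-fold above the controls (log2 2.09, SE 0.61, adjusted p = 0.018) and *TAP1* 4.22-fold (log2 2.08, SE 0.19, adjusted p = 1.3e-05). *HLA-B* was 3.34-fold above them (log2 1.74, SE 0.55, adjusted p = 0.028) and *NLRC5* 3.14-fold (log2 1.65, SE 0.51, adjusted p = 0.022). These 4 genes had the largest differences in both comparisons with control. *TAPBP* followed at log2 1.11 (SE 0.14, adjusted p = 2.3e-05), *HLA-C* at 0.88 (SE 0.29, adjusted p = 0.031), *HLA-E* at 0.78 (SE 0.15, adjusted p = 0.0011) and *B2M* at 0.60 (SE 0.09, adjusted p = 2.5e-05).

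Part of this rested on the combination replicate 3. Without it the log2 fold change was 1.07 for *HLA-B*, 1.25 for *HLA-F*, 0.88 for *NLRC5* and 0.50 for *HLA-C*. All 4 were still called higher, *HLA-B* at an adjusted p of 0.042. Leaving out any 1 of the 3 control libraries ended the call for these same 4 genes, with adjusted p between 0.055 and 0.092 and log2 fold changes of 0.83 to 2.11.

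*TAP2* was the exception. Its log2 fold change was −0.19 (SE 0.09, adjusted p = 0.063), so it was not called in either direction. It was called lower without the combination replicate 3 (log2 −0.30, adjusted p = 0.004) and without the control replicate 1 (log2 −0.25, adjusted p = 0.033). With library size as the only scaling its sign turned, to 0.03. The read-through gene ENSG00000250264, which spans *TAP2* on the same strand, had 174, 151 and 143 counts in the controls, 476, 624 and 646 after decitabine and 279, 317 and 439 after the combination. With both summed, the log2 fold changes were 0.71 for decitabine against control (adjusted p = 8e-06), −0.02 for the combination against control (adjusted p = 0.89) and −0.73 for the combination against decitabine (adjusted p = 0.00045).

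**Figure D2:**
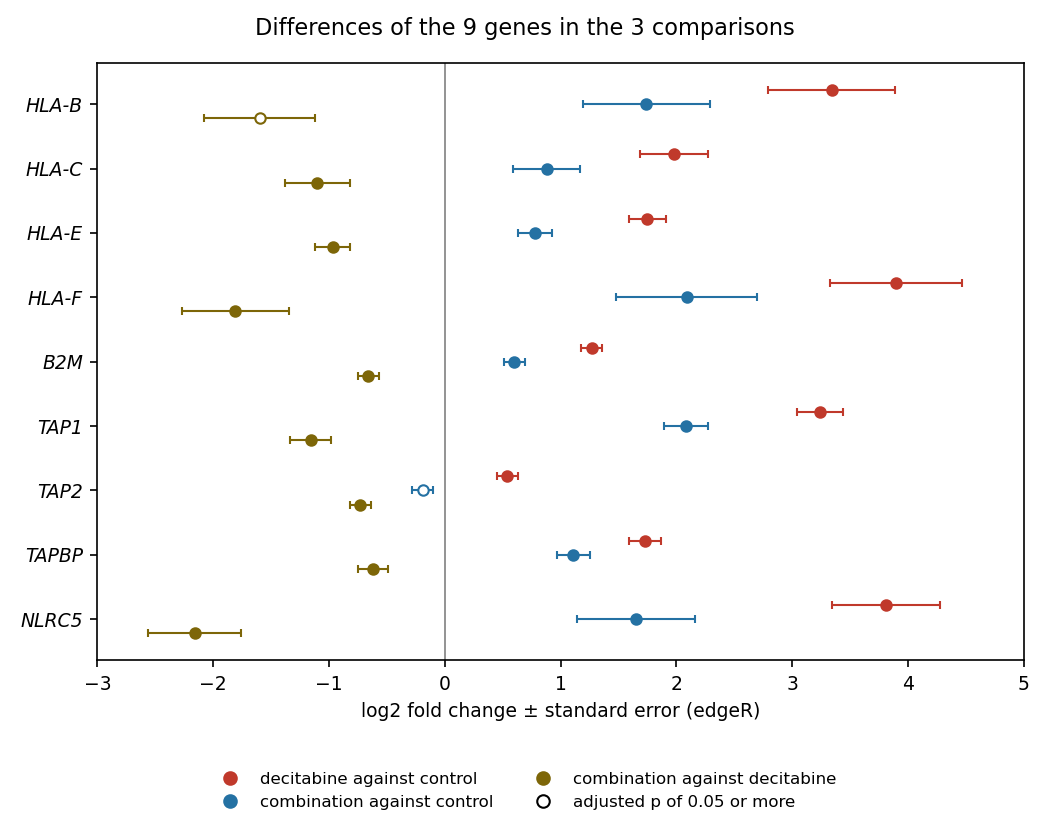
Log2 fold change ± SE of each gene (horizontal axis) in the 3 comparisons, by colour, with open points where the adjusted p was 0.05 or more. The open points are *TAP2* in the combination against control, at −0.19, and *HLA-B* in the combination against decitabine, at −1.60.

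The comparison of the combination with decitabine asks what adding SAM changed. Of the 9 genes, 8 fell by edgeR's test, and the log2 fold change of every gene was below 0. The count was 9 by DESeq2 and by voom with limma, and 5 when only the 6 libraries compared were fitted. Over all genes tested, 8.02% were called lower and 7.67% higher. The median log2 fold change of the 9 was −1.10 (from −2.16 to −0.62), against 0.002 for all genes. In 9 of the 9 every combination library was below every decitabine library, which held for 16.8% of all genes tested. The decitabine libraries are those of the comparison with control, so the 2 comparisons are not separate evidence.

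*NLRC5* fell most, to 0.223 of its decitabine level (log2 −2.16, SE 0.40, adjusted p = 0.015). *HLA-F* fell by 1.81 on the log2 scale (SE 0.46, adjusted p = 0.042), *TAP1* by 1.16 (SE 0.18, adjusted p = 0.0052) and *HLA-C* by 1.10 (SE 0.28, adjusted p = 0.042). *HLA-E* fell by 0.97 (SE 0.15, adjusted p = 0.0039), *TAP2* by 0.73 (SE 0.09, adjusted p = 0.00037), *B2M* by 0.66 (SE 0.09, adjusted p = 0.00059) and *TAPBP* by 0.62 (SE 0.13, adjusted p = 0.011). *HLA-B* had a log2 difference of −1.60 (SE 0.48) and missed the threshold (adjusted p = 0.074).

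Replicate 3 of the combination again moved these values. Without it, the log2 fold changes were −2.93 for *NLRC5*, −2.64 for *HLA-F*, −2.26 for *HLA-B* and −1.48 for *HLA-C*, and *HLA-B* was then called lower (adjusted p = 0.0059), so that all 9 were. Among all genes, 10.5% were then called lower. The calls of *HLA-C* and *HLA-F* were at the threshold and were lost when any 1 of the other 8 libraries was left out, with adjusted p from 0.062 to 0.14. *TAPBP* was lost without the decitabine replicate 2 (adjusted p = 0.053) or the combination replicate 2 (0.058), and *NLRC5* without the decitabine replicate 2 (0.056). *HLA-E*, *B2M*, *TAP1* and *TAP2* kept their call in all 9 of these fits.

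The 4 heavy chains share sequence, so their counts were also summed, which does not depend on how reads were split among them. Other class I heavy-chain genes were not included. Words found in another of the 4 made up 12.4% in *HLA-B*, 13.2% in *HLA-C*, 3.85% in *HLA-E* and 4% in *HLA-F*. With any other gene the shares were 32%, 19.6%, 13.9% and 43.7%. The sum therefore still depends on how reads were split with genes outside the 4. The sum was 133.8, 143.7 and 130.1 CPM in the controls, 463.1, 539.9 and 613.2 CPM after decitabine and 190.1, 215.1 and 351.7 CPM after the combination. The groups were separate. Fitted as 1 feature, the log2 fold change was 1.99 for decitabine against control (adjusted p = 1e-04), 0.89 for the combination against control (adjusted p = 0.0082) and −1.09 for the combination against decitabine (adjusted p = 0.017).

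The make-up of this sum changed too. *HLA-E* gave 69.4 to 72.7% of it in the controls, 55.3 to 65.4% after decitabine and 61.3 to 69.5% after the combination. *HLA-B* gave 4.64 to 5.84%, then 10.1 to 16.5%, then 7.47 to 12.1%. *HLA-F* gave 0.835 to 0.986%, then 3.16 to 3.94%, then 1.47 to 2.83%. *HLA-C* stayed at 21.3 to 24.2% in all 9 libraries. For *HLA-B* in the control replicate 1, the 95% exact binomial interval of its 4.64% ran from 3.87 to 5.5%. Such intervals cover counting error only, and reads without molecular identifiers are not independent molecules. The ratio of summed heavy-chain counts to *B2M* counts was 0.354 ± 0.0197 (SD, n = 3) in the controls, 0.583 ± 0.0745 after decitabine and 0.427 ± 0.103 after the combination.

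**Figure D3:**
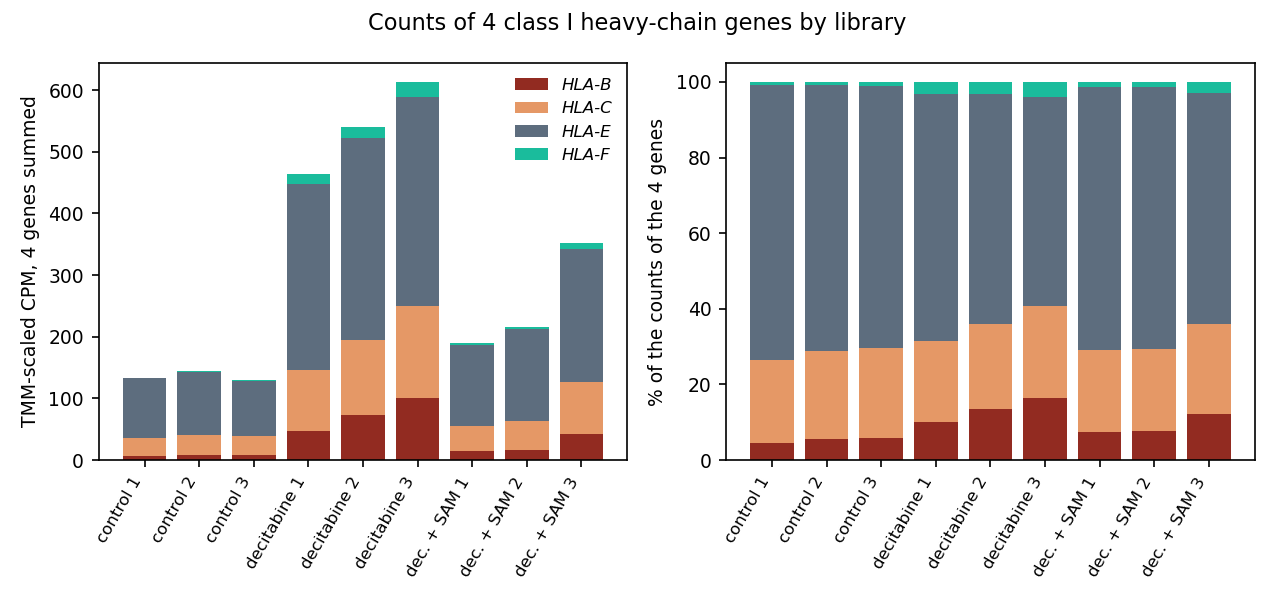
Left, TMM-scaled CPM of *HLA-B*, *HLA-C*, *HLA-E* and *HLA-F* stacked for each library, from 0. Right, the share of each gene in the counts of the 4, in percent. The sum is highest in the decitabine libraries (463.1 to 613.2 CPM), where the shares of *HLA-B* and *HLA-F* are also highest.

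Levels can be compared between genes only per length of transcript. Per kilobase of the canonical transcript, *B2M* was far above all others, at 408 ± 15.1 CPM (SD, n = 3) in the controls, 980 ± 52.7 after decitabine and 619 ± 72.1 after the combination. In the controls *HLA-E* followed at 37.8 ± 2.16 and *HLA-C* at 20.2 ± 1.34. *TAP2* (11.1 ± 0.735), *TAP1* (9.70 ± 0.489) and *TAPBP* (9.26 ± 1.01) were next to each other, and the last 2 did not differ beyond their spread. *HLA-B* stood at 4.76 ± 0.641, *HLA-F* at 0.839 ± 0.028 and *NLRC5* lowest at 0.315 ± 0.0401.

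After decitabine the order per kilobase changed below *B2M* and *HLA-E* (127 ± 7.29). *TAP1*, at 91.5 ± 5.84, and *HLA-C*, at 79.7 ± 16.2, were within their spread of each other. *HLA-B* followed at 48.0 ± 17.8 and *TAPBP* at 30.7 ± 3.48, also within their spread, and *TAP2* came next at 16.1 ± 0.394. *HLA-F* was at 12.6 ± 3.33 and *NLRC5* at 4.44 ± 0.144. Thus *TAP2*, which was slightly above *TAP1* in the controls, was well under it after decitabine. After the combination *TAP1* was at 41.0 ± 12.7 and *TAP2* at 9.71 ± 1.21.

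Other genes of the pathway were counted from lists of known members. Of 12 genes for peptide supply and loading, all tested, 8 rose after decitabine and 3 fell (*CALR*, *PDIA3* and *PSME3*), with a median log2 fold change of 0.92. Over all genes, 36.3% were called higher and 32.5% lower. After the combination, 6 were higher than control and 3 lower, against 35.9% and 31.3% of all genes. Against decitabine alone, 5 were lower in the combination (*PSMB8*, *PSME1*, *PSME2*, *ERAP1* and *ERAP2*) and none was higher even at an unadjusted p under 0.05, with a median of −0.55. Of all genes, 8.02% were lower. Without the combination replicate 3, 5 of the 12 were higher than control, and 7 were lower than after decitabine, when 10.5% of all genes were.

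*PSMB8*, a catalytic subunit of the immunoproteasome, had 9.73, 11.4 and 11.2 CPM in the controls, 55.8, 57.1 and 60.5 CPM after decitabine and 20.3, 19.5 and 32.8 CPM after the combination. Its groups were separate, and its log2 fold changes were 2.42 (SE 0.18, adjusted p = 6.2e-07), 1.17 (SE 0.18, adjusted p = 0.0002) and −1.26 (SE 0.17, adjusted p = 0.0017) in the order of the comparisons above. *PSMB9*, the subunit encoded opposite *TAP1*, had 1.14, 1.40 and 0.691 CPM in the controls, 14.4, 16.2 and 22.4 CPM after decitabine and 2.22, 3.12 and 10.1 CPM after the combination. The groups did not overlap, and replicate 3 of the combination was far above the other 2. Its log2 fold changes were 4.03, 2.26 and −1.77, the last not called (adjusted p = 0.068). Without that library the difference between the combination and control was 1.30 (adjusted p = 0.0032), and that between the combination and decitabine was −2.72, which was called (adjusted p = 1.3e-05). *ERAP1* and *ERAP2*, the aminopeptidases that trim peptides in the endoplasmic reticulum, rose after decitabine by 1.97 and 1.33 on the log2 scale and were 0.77 and 1.18 lower in the combination than after decitabine (log2 −0.77 and −1.18, and −1.05 and −1.69 without the combination replicate 3). *TAPBPL*, a tapasin-related peptide editor, rose by 1.18 after decitabine. The chaperone gene *CALR* fell by 0.70, and *CANX*, another chaperone of the heavy chain, had −0.01.

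Of 14 genes known as regulators of class I transcription, all tested, 3 rose after decitabine (*IRF1*, *IRF2* and *NFYB*) and 4 fell (*RFXANK*, *CREB1*, *NFYC* and *EZH2*). As shares of the list, both are below those of all genes (36.3% and 32.5%). *IRF1*, a transcription factor that interferon induces, had 16.5, 18.1 and 15.1 CPM in the controls, 40.1, 37.4 and 32.9 CPM after decitabine and 17.6, 16.5 and 24.7 CPM after the combination. The decitabine libraries were separate from the rest, and the combination and control libraries overlapped. *IRF1* rose by 1.15 after decitabine and fell by 0.91 between decitabine and the combination, and its difference between the combination and control was 0.24 (adjusted p = 0.15).

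The RFX proteins are the DNA-binding partners of NLRC5. *RFXANK* fell by 0.38 after decitabine and by 0.83 after the combination, and *RFX5* and *RFXAP* had log2 fold changes of −0.04 and 0.09 after decitabine. *RFX5* was lower in the combination than in control (log2 −0.32, adjusted p = 0.0073). *EZH2*, the methyltransferase of a complex that silences genes, fell by 0.84 after decitabine and by 0.60 after the combination. *CIITA*, the relative of NLRC5 that drives MHC class II, had log2 0.93 (adjusted p = 0.092) and 0.90 (adjusted p = 0.11) against control. Between the combination and decitabine, 3 of the 14 were lower (*IRF1*, *IRF2* and *RFXANK*, the last by log2 −0.44 at an adjusted p of 0.0061), against 8.02% of all genes, and none was called higher by edgeR's test, with 2 higher at an unadjusted p under 0.05 (*EZH2* and *NFYC*). Without the combination replicate 3, *EZH2* was called higher (log2 0.27, adjusted p = 0.036).

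**Figure D4:**
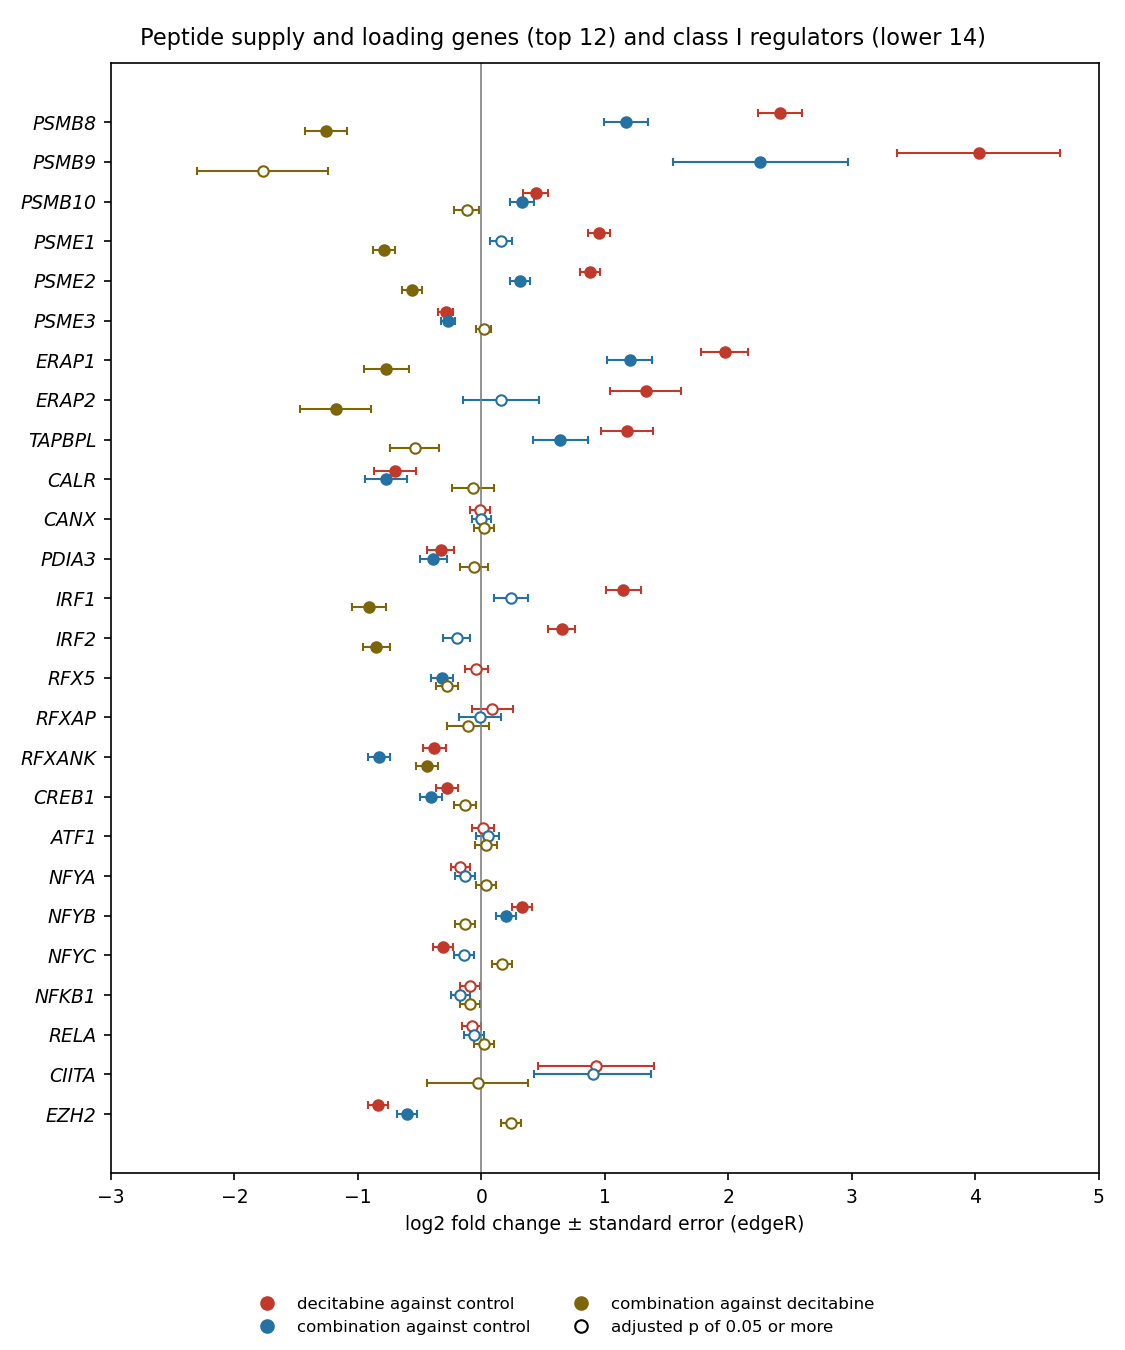
Log2 fold change ± SE (horizontal axis) of 12 genes of peptide supply and loading and 14 regulators of class I genes in the 3 comparisons, by colour, with open points where the adjusted p was 0.05 or more. *PSMB9* and *PSMB8* rise most after decitabine (log2 4.03 and 2.42), and most regulators lie nearer to 0.

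Of 10 genes for class I-like heavy chains, 4 passed the filter on low counts. After decitabine *MR1*, which presents vitamin metabolites, rose by log2 1.46, *MICB* by 0.98 and *MICA* by 0.32, and *FCGRT*, which recycles antibodies, fell by 0.42. The combination raised *MR1* by 1.19, *MICB* by 1.10 and *MICA* by 0.52 against control. Between the combination and decitabine, edgeR called none of the 4. Calls were uncommon in that comparison, at 8.02% lower and 7.67% higher among the genes tested. A lack of calls among only 4 genes therefore says little. At an unadjusted p under 0.05, *MICA* alone was higher (log2 0.20, adjusted p = 0.097). The ligands *MICA* and *MICB* of an activating receptor had log2 differences of 0.20 and 0.12 in the comparison where the 9 presentation genes lay between −2.16 and −0.62.

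The genes most like the 9 in pattern were found by the root mean square difference, over the 9 libraries, from their mean log2 profile relative to control. This profile was 2.12, 2.29 and 2.45 in the decitabine libraries and 0.70, 0.80 and 1.62 in the combination libraries. *PSMB8* was nearest at 0.103 log2 units, then *PLSCR1* at 0.187, ENSG00000286695 at 0.19, *ITGB3* at 0.204 and *IL23A* at 0.206. Of the 9 themselves, *HLA-C* was nearest to their mean at 0.25, and *TAP2* was farthest at 1.25.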

How the data were processed

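A total of 9 RNA-seq libraries of PC-3 cells were compared. The authors trimmed reads (Trim Galore 0.6.4) and quantified them with kallisto against GRCh38.p13, per the labels' processing notes, which list kallisto 0.4.6 and edgeR 3.17. As deposited by the authors, the values are kallisto's estimated counts per Ensembl gene, without normalization. The annotation release is not given in the sources used here. Deposited log2 CPM tables were not used. The labels gave the conditions, and the study's methods gave the doses.

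Counts were rounded and fitted with edgeR 4.0.16 (R 4.3.3): filterByExpr, TMM scaling (factors 0.895 to 1.08), robust dispersion and the quasi-likelihood test, 1 mean per group over 9 libraries. The Benjamini-Hochberg adjustment ran over 18532 genes, at a threshold of 0.05. A standard error is the absolute log2 fold change divided by the square root of F. On simulated data, 84.7% of genes changed 2-fold were recovered for decitabine against control (17940 to 17976 genes tested). The simulation gave every gene the same dispersion and no replicate effect, so this share does not carry over to genes with a wide spread. In the combination the SD was 64.3% of the mean for *HLA-B* and 76.1% for *HLA-F*, against 11.6% for *B2M*. Symbols were matched for 60357 of 60617 identifiers (GENCODE release 44). Replicates of a group differed beyond sampling noise (chi-square per degree of freedom 5.86 to 23.5).

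The genes and lists were chosen with earlier results of these data known. Text values follow a rule: the 9 genes, list genes called with an absolute log2 fold change over 1 (at most 6 a list), list genes that a small count names, and the 5 nearest patterns. The rule also allowed any list gene that bears on a stated result, which left room for choice. *CANX*, *RFX5*, *RFXAP* and *CIITA* fall under no other part of it. Alternatives were DESeq2 1.42.0 and its size factors, library size alone, voom with limma 3.58.1, a minimum mean of 10 counts, no filter at all, 6 libraries only, a replicate block, a threshold of 1 on the log2 fold change, leaving out each library, summed heavy chains, and other denominators and lengths. The sum of TAP2 with its read-through gene, and the list genes without the combination replicate 3, were added after the data were seen. Single genes dropped from 3 of the lists are not reported here.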

Additional observations from a re-analysis of the deposited data

How the results depend on the processing

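For decitabine against control, 9 of the 9 genes were called higher under every alternative except an absolute log2 fold change over 1, which *TAP2* did not reach (8 genes). For the combination against control, 4 were called higher with no filter on low counts and 5 with an absolute log2 fold change over 1, against 8. Leaving out 1 library gave 4 to 8 genes called higher, 4 being the count without any 1 control. The count called lower was 0, and 1 (*TAP2*) with no filter and with the replicate block (adjusted p = 0.039), and 0 to 1 when 1 library was left out. *TAP2* turned to 0.03 (adjusted p = 0.8) with library size alone, where the median of all genes moved from 0.048 to 0.268. *NLRC5* missed the threshold under the block (adjusted p = 0.051). For the combination against decitabine, 5 genes were called lower with only the 6 libraries compared and 4 with an absolute log2 fold change over 1, against 8. Leaving out 1 library gave 4 to 9. Over all alternatives, single genes lost their call 24 times in this comparison, mostly when 1 library was left out. *HLA-B* was called lower by DESeq2 (adjusted p = 0.0098), voom and limma (0.0075) and with the replicate block (0.015). Except where fewer samples were fitted, the cause was not tested. Same-numbered libraries correlated in their deviations from group means at −0.03 to 0.10 with the controls and at 0.29, 0.04 and 0.29 between the treatments. Decitabine replicate 1 correlated at −0.29 with combination replicate 3, and decitabine replicate 3 at −0.28 with combination replicate 1. The main fit did not treat the numbers as a pairing, and whether the treated replicates were paired was not tested. The block changed no other call of the 9 genes. With all counts as denominator, the summed heavy chains of the controls were 122 CPM in place of 136. Each symbol had 1 row, so summing rows was not applicable. With lengths from all exons joined, 9, 9 and 7 of the 9 genes kept their place in the order per kilobase in the controls, after decitabine and after the combination. *HLA-F* and *NLRC5* rested on few counts in the controls, which limits the precision of their folds. For the pathway genes, whose values without the combination replicate 3 were added after the data were seen, the sign turned without it for *ERAP2* (−0.36) and *CANX* (−0.04) in the combination against control, and for *CANX* (−0.02), *RELA* (−0.01) and *CIITA* (0.12) in the combination against decitabine.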
